A study of Mus musculus with 21 samples.

Results

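The domains of H3K9me2 and of LaminB1 were set against each other in fibro-adipogenic progenitors (FAPs) of the genotype named Prdm16. H3K9me2 is the dimethylated form of lysine 9 on histone H3, and LaminB1 is a protein of the nuclear lamina. The members were all autosomal domains of the 3 H3K9me2 libraries and the 1 LaminB1 library of that genotype, 3762 of the 8221 domains deposited for the series. H3K9me2 replicates 1, 2 and 3 held 1031, 934 and 894 of them, and LaminB1 held 903. They were compared by shared bases, by nesting, by the distance between boundaries and by score and length.

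FAPs are mesenchymal cells that lie between the fibres of skeletal muscle and can turn into fat cells or matrix-producing fibroblasts. Prdm16 FAPs came from adult Prdm16Flox/Flox::PdgfrαCre-ERT/+ mice, in which both Prdm16 alleles are floxed and a tamoxifen-dependent Cre is driven from Pdgfra. WT FAPs came from Prdm16Flox/Flox::Pdgfrα+/+ mice, which carry the floxed alleles without the Cre. Animals of both genotypes received tamoxifen on 5 days and cardiotoxin 7 days later, FAPs were sorted at 5 days post-injury, and the cells were grown for 4 to 5 days before fixation. Any cell that expresses Pdgfra can recombine under this driver, the sources used here do not give the efficiency of deletion, and the controls received tamoxifen but have no Cre. The sample titles spell the second target LamininB1, whereas the antibody label gives LaminB1. Nothing in the labels says which libraries came from separate animals, so spreads between libraries may be partly technical.

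H3K9me2 is deposited by the methyltransferase pair Ehmt1 and Ehmt2 (GLP and G9a) and marks broad, mostly silent stretches of chromatin. The nuclear lamina is a mesh of lamins under the inner nuclear membrane, and the stretches of chromosome that touch it, known as lamina-associated domains, are long, poor in genes and mostly silent. In many cell types H3K9me2 is found at the nuclear periphery, and the mark is among the features that have been used to describe lamina-associated chromatin. Prdm16 is a zinc finger protein of the PR domain family, known for its part in brown and beige fat.

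Promoters of 5 named genes are shown, from those under both marks, LaminB1 only and neither, because CG content is compared between these classes further on. Each line is 300 bases, from 250 before to 50 after an annotated start site, taken from RefSeq for GRCm38.p6 and written in the direction of the gene, with every CG dinucleotide in capitals. The class named for each is that of the gene body, not of the printed bases. Clstn2 (chr9:98033118-98033417, minus strand) was classed under both marks and had 43 CG. The printed bases of Clstn2 lay outside LaminB1. Tenm2 (chr11:36944192-36944491, minus strand) lay under both marks and had 2 CG, at an annotated start 292812 bases inside the longest gene model. Hmga2 (chr10:120476420-120476719, minus strand) was classed under LaminB1 only and had 12 CG, and its printed bases also lay outside LaminB1. Vmn2r91 (chr17:18084807-18085106, plus strand) lay under LaminB1 only and had none. Spp1 (chr5:104434861-104435160, plus strand) was classed under neither mark and had 3 CG.
Clstn2: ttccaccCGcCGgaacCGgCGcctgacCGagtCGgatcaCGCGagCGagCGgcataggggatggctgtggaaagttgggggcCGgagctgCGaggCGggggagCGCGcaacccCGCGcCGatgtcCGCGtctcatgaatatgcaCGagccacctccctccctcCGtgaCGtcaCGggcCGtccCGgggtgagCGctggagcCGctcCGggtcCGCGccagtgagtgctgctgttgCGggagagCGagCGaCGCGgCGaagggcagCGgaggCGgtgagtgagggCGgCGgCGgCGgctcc
Tenm2: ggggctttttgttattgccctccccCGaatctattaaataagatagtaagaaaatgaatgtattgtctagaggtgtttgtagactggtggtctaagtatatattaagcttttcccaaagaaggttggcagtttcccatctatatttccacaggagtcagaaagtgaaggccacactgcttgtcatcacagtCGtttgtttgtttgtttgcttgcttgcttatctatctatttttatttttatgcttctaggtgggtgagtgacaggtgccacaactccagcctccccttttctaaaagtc
Hmga2: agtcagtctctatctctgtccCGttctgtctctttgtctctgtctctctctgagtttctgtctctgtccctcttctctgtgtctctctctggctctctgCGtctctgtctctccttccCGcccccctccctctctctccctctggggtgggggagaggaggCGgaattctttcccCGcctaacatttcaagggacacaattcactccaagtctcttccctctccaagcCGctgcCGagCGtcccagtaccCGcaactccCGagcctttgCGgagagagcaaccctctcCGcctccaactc
Vmn2r91: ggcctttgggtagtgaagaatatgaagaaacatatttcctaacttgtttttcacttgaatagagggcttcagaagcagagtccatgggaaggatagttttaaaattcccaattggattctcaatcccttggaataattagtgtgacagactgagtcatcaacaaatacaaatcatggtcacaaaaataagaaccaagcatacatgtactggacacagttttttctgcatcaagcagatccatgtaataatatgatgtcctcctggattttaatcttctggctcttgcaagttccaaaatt
Spp1: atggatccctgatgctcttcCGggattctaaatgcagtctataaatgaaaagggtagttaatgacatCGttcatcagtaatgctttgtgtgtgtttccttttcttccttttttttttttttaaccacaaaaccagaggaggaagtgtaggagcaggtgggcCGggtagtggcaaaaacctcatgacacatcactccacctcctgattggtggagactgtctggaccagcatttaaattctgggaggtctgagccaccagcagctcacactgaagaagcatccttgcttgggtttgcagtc

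H3K9me2 domains were longer and covered more of the autosomes than LaminB1 domains. H3K9me2 covered 500 Mb in replicate 1, 800 Mb in replicate 2 and 677 Mb in replicate 3, which is 20.3, 32.5 and 27.5% of 2461 Mb. LaminB1 covered 305 Mb, or 12.4%. The median domain was 315, 453 and 474 kb long in the 3 H3K9me2 libraries and 196 kb in LaminB1. The longest H3K9me2 domain reached 4.75 Mb in replicate 1 but 12.8 and 13.2 Mb in replicates 2 and 3. Replicate 1 thus held more, shorter domains over less sequence. Within a list no domains overlapped, and boundaries lay on a grid of 3 kb for H3K9me2 and 4 kb for LaminB1.

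By the Jaccard index, H3K9me2 replicate 1 was less like the other libraries of its label than they were like each other. This index, shared bases over the bases of either list, was 0.68 between replicates 2 and 3. It was 0.46 and 0.48 between replicate 1 and those libraries. Replicate 1 was nearest by this index to the library labelled WT replicate 2, at 0.66. The index is also limited by a difference in size between lists, and replicate 1 covered the least sequence. Of the bases of replicate 1, 82.2 and 76.4% lay in Prdm16 replicates 2 and 3. In WT replicates 1, 2 and 3 lay 89.1, 84.4 and 76.7% of them. Replicate 2 was also nearer by the index to the libraries labelled WT replicates 1 and 3 (0.72 and 0.69) than to Prdm16 replicate 3. The index thus did not follow the genotype labels. List size was not held constant, and whether those labels are right was not tested. Values below are therefore given for each library.

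The marks shared more bases than independent placement gives in replicate 1 and close to that amount in replicates 2 and 3. The expected amount is the mean over all rotations of one list along each chromosome, which equals the covered share of one list times the covered bases of the other, summed over chromosomes. Replicate 1 shared 114 Mb with LaminB1 against 62.8 Mb expected, a ratio of 1.81. Replicate 2 shared 101 Mb against 96.3 Mb, a ratio of 1.05. Replicate 3 shared 86.1 Mb against 82.0 Mb, a ratio of 1.05. The mean ratio was 1.30 ± 0.441 (SD, n = 3), and 1.05 without replicate 1.

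Most bases of each mark lay outside the other. The share of H3K9me2 inside LaminB1 was 22.7% in replicate 1, 12.6% in replicate 2 and 12.7% in replicate 3, with a mean of 16.02 ± 5.82% (SD, n = 3) and 12.7% without replicate 1. The share of LaminB1 inside H3K9me2 was 37.3, 33.0 and 28.2% in the same order, with a mean of 32.8 ± 4.52% (SD, n = 3) and 30.6% without replicate 1. With the top-scoring domains of every list alone (scores at or above the list's median), the ratio was 2.04 in replicate 1 and went below 1 in replicates 2 and 3, to 0.801 and 0.868. The 3 values share 1 LaminB1 library, so they carry no error of that mark.

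Chromosome 11 had the highest ratio in all 3 libraries, and the order of chromosomes was similar between libraries. The ratio on chromosome 11 was 3.22, 2.60 and 2.54 in replicates 1, 2 and 3. It exceeded 1 on 18 of 19 autosomes in replicate 1, where chromosome 7 was the exception at 0.973. In replicates 2 and 3 it exceeded 1 on 8 and 10 of 19. Replicate 1 lay above replicates 2 and 3 on 19 of 19 autosomes. Spearman's rho of the 19 ratios was 0.66 between replicates 1 and 2, 0.76 between 1 and 3 and 0.84 between 2 and 3, over chromosomes that share the LaminB1 list. Chromosome 7 had the lowest ratio in replicates 1 and 2, 0.973 and 0.704, and LaminB1 covered 23.9% of it.

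**Figure D1:**
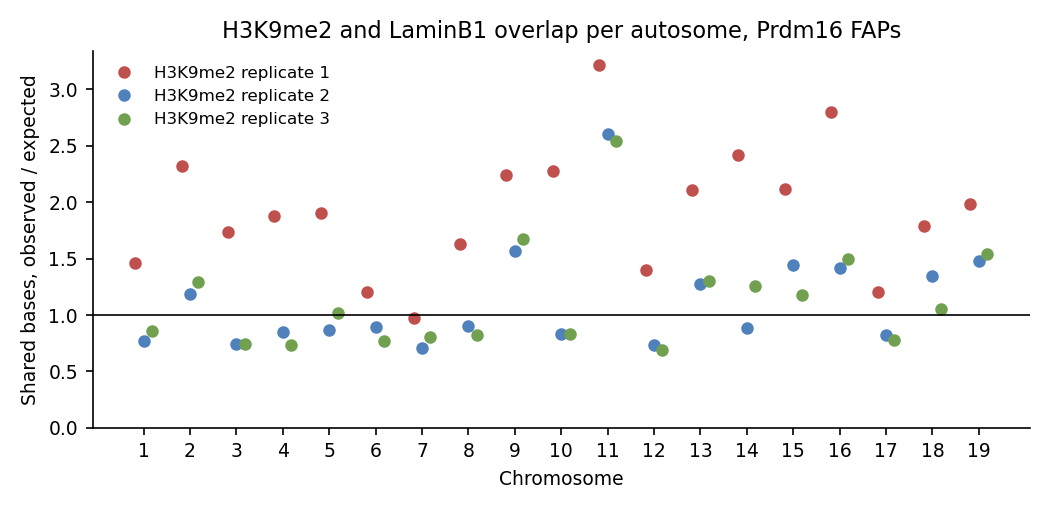
Shared bases of H3K9me2 and LaminB1 over the expected amount (vertical axis, ratio) on each of the 19 autosomes (horizontal axis), 1 point per H3K9me2 library of Prdm16 FAPs; the line marks a ratio of 1. Replicate 1 lies above the other libraries on every autosome, and all 3 are highest on chromosome 11, at 3.22, 2.60 and 2.54.

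One long stretch of chromosome 11 on which the marks met touches Bcl11a, a zinc finger transcription factor known for the switch between globin genes. H3K9me2 ran over chr11:24093001-26376000 in replicate 1 and chr11:24084001-26385000 in replicate 3. Each of these domains touched 6 LaminB1 domains, the largest number in its list, and 48.5 and 48.2% of their bases lay in LaminB1. No protein-coding gene lay wholly inside either of them. In replicate 2 the largest number was reached by chr15:12936001-25266000, which holds the cadherin genes Cdh6, Cdh9, Cdh10, Cdh12 and Cdh18. It touched 15 LaminB1 domains, yet these covered 20.3% of its 12.3 Mb.

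How much of the H3K9me2 lay in LaminB1 depended on which libraries held it. Bases covered in all 3 libraries came to 355 Mb, and LaminB1 covered 18.6% of them. Bases covered in replicate 1 only came to 61.9 Mb with 37.1% in LaminB1, and those in replicates 1 and 3 to 27.4 Mb with 42.1%. Bases in replicates 2 and 3 but not 1 came to 243 Mb with 3.05% in LaminB1, below the 11.1% of the 1519 Mb that no H3K9me2 library covered. Bases in replicate 3 only had 2.30% and those in replicate 2 only 9.62%. Every set that included replicate 1 was thus above the autosomal 12.4%, and every set without it was below.

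**Figure D2:**
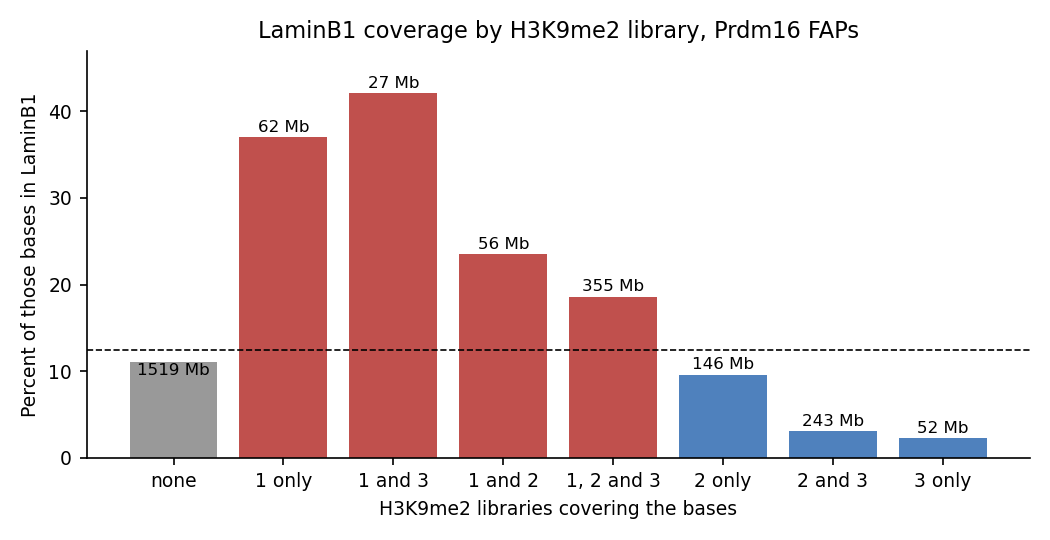
Percent of bases inside LaminB1 (vertical axis) for the bases covered by each combination of the 3 H3K9me2 libraries of Prdm16 FAPs (horizontal axis), with the extent of each set in Mb and the autosomal LaminB1 coverage of 12.4% as a dashed line. The 4 sets with replicate 1 (red) lie between 18.6 and 42.1%, and the 3 sets without it (blue) between 2.30 and 9.62%.

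Seen from LaminB1, 55.3% of its bases lay in no H3K9me2 library and 21.6% (66.0 Mb) lay in all 3. Of its 903 domains, 399 were covered by under 0.5 in every library and 245 by 0.5 or more in every library. The remainder differed by library. Replicate 1 alone covered 66 LaminB1 domains by 0.5 or more, and replicates 2 and 3 without replicate 1 covered 43. The longest of the 66, chr12:87756001-89300000 (1544 kb), runs into Nrxn3, a neurexin of the synapse.

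LaminB1 domains lay within H3K9me2 domains more often than placement gives, and H3K9me2 domains lay within LaminB1 domains less often. Of 903 LaminB1 domains, 305 lay wholly inside an H3K9me2 domain of replicate 1, against 104 expected. The count was 343 against 210 in replicate 2 and 248 against 168 in replicate 3. The ratios were 2.92, 1.64 and 1.48. The mean share was 33.1%, and 32.7% without replicate 1. The expected count averages over every start position of each domain on its chromosome. In all 3 libraries at once 187 LaminB1 domains were inside H3K9me2, and 312 touched none.

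Wholly enclosed H3K9me2 domains were few. Replicate 1 had 18 inside a LaminB1 domain against 48.2 expected, replicate 2 had 11 against 31.9, and replicate 3 had 13 against 30.01. The mean share was 1.46%, and 1.32% without replicate 1. With a cover of 0.5 or more in place of the whole domain, the counts were 173, 105 and 100 against 115, 92.4 and 88.3 expected, so the count passed the expected one in each library. Domains that touched no LaminB1 made up 66.1, 65.8 and 69.5% of the 3 lists. They were shorter than partly covered domains, with medians of 264, 366 and 405 kb against 574.5, 736.5 and 762 kb. A longer domain can meet another list more easily, and length was not held constant.

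Single domains are described here by length, not as samples of their kind. The longest LaminB1 domain inside H3K9me2 of all 3 libraries was chr5:26280001-27620000, 1340 kb long. It covers most of Dpp6, which makes a subunit of neuronal A-type potassium channels, and holds Speer4b, of a family known from the testis. The longest LaminB1 domain free of H3K9me2 in all 3 was chr17:17960001-20916000, 2956 kb long, with 35 protein-coding genes inside, 30 of them vomeronasal receptors. The longest H3K9me2 domain free of LaminB1 was chr12:25248001-28377000 in replicate 1, with Rnf144a, Rsad2, Cmpk2 and Sox11. In replicate 2 it was chr16:78639001-84516000, which touches Ncam2, a neural adhesion molecule, Chodl and Tmprss15. In replicate 3 it was chr3:45390001-50736000, which holds or touches Pcdh10 and Pcdh18, adhesion proteins, and Slc7a11, a cystine transporter. An H3K9me2 domain in Col22a1 and Fam135b on chromosome 15 was the longest or the next longest wholly inside LaminB1 in each library, with lengths of 768, 537 and 561 kb.

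The longest LaminB1 domain, chr14:3008001-7656000, ran 4.65 Mb along the first mapped sequence of chromosome 14. It also had the highest LaminB1 score on the autosomes, and it touched 76 protein-coding gene models, mostly unnamed copies. H3K9me2 covered 100, 44.0 and 80.2% of it in replicates 1, 2 and 3. Its genes are near-identical copies, so the reads behind it may be placed ambiguously. Without it the overlap ratios were 1.78, 1.05 and 1.03.

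Boundaries of the marks lay near each other somewhat more often than positions in general, but most were far apart. In replicate 1, 6.94% of 2062 H3K9me2 boundaries lay within 24 kb of a LaminB1 boundary, against 3.56% of all positions. In replicate 2 it was 5.62% of 1868 against 3.52%, and in replicate 3 5.87% of 1788 against 3.52%. The mean was 6.14%, and 5.75% without replicate 1. The median distance was 801, 881 and 965 kb. The share of boundaries inside a LaminB1 domain was 8.34, 8.35 and 8.28%, below the 12.4% of bases that LaminB1 covers.

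Where boundaries of the same side came close, the H3K9me2 domain more often extended past the LaminB1 domain than stopped short of it. A left edge was compared with a left edge and a right edge with a right edge, within 100 kb. In replicate 1, 257 of 338 H3K9me2 edges lay beyond the LaminB1 edge and 79 short of it. Replicate 2 had 151 beyond and 56 short of 209, and replicate 3 had 140 beyond and 76 short of 219. The H3K9me2 edge lay at a median offset of -29, -29 and -17 kb, where negative values are outside the LaminB1 domain.

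**Figure D3:**
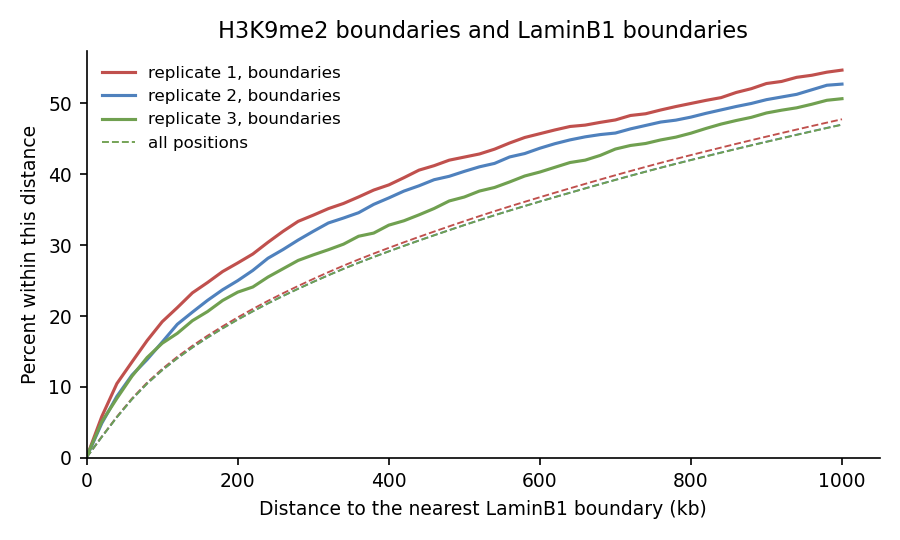
Percent of H3K9me2 boundaries (solid lines, 1 per library) and of all autosomal positions (dashed lines, same colours) that lie within a given distance of the nearest LaminB1 boundary (horizontal axis, kb). The solid lines run above the dashed ones at every distance drawn beyond the origin; within 24 kb they stand at 6.94, 5.62 and 5.87% against 3.56, 3.52 and 3.52%.

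Longer domains had higher scores in every list. The score is the authors' own value for a domain, used here only to rank domains within a list. Spearman's rho of score and length across domains was 0.82, 0.87 and 0.86 in H3K9me2 replicates 1, 2 and 3 and 0.86 in LaminB1. Domains of a list share a library, and the correlation is a description.

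High-scoring H3K9me2 domains met LaminB1 more often than low-scoring ones in all 3 libraries, but a larger share of their bases lay in it in replicate 1 only. Domains that touched no LaminB1 made up 82.5% of the lowest-scoring 25% and 33.7% of the highest-scoring 25% in replicate 1, 78.5 and 46.2% in replicate 2, and 77.6 and 54.5% in replicate 3. Spearman's rho of score and covered share was 0.35, 0.19 and 0.16, and that of length and covered share 0.31, 0.24 and 0.20. Score follows length, and a ranking by length showed a like fall. Untouched domains made up 82.9% of the shortest 25% and 36.8% of the longest 25% in replicate 1. They made up 80.7 and 44.9% in replicate 2, and 83.0 and 51.3% in replicate 3. Length was not held constant, so these values do not set score apart from length. In replicate 1, 29.1% of bases in the highest-scoring 25% of domains lay in LaminB1, against 11.5% in the lowest-scoring 25%. In replicate 2 these groups had 11.5 and 12.7%, and in replicate 3 they had 12.002 and 15.2%. Domains covered by 0.5 or more had a median score percentile 14.7 points above the others in replicate 1 (173 against 858 domains). In replicate 2 the difference was -5.67 points (105 against 829), and in replicate 3 -6.94 (100 against 794). The mean over the 3 libraries was 0.695 ± 12.1 points (SD, n = 3) and turned to -6.30 without replicate 1. With the score per kb of domain the difference of medians was 15.5, 4.60 and 2.80 points, whereas rho of score per kb and covered share was 0.033, -0.153 and -0.149, so replicates 2 and 3 had no direction common to these measures.

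From the side of LaminB1, score was unrelated to the share covered by H3K9me2 in replicate 1 and fell weakly with it in replicates 2 and 3. Spearman's rho of LaminB1 score and covered share was 0.0023, -0.214 and -0.129 for replicates 1, 2 and 3. With length in place of score it was -0.013, -0.170 and -0.072, and length was not held constant. For replicate 1 the median score was 12.4 in domains covered by 0.5 or more and 11.9 in the others. The 187 LaminB1 domains wholly inside H3K9me2 in all libraries had a median score at the 41.3 percentile of the list. Their median length was 180 kb, against 196 kb for the list. The 66 domains that replicate 1 alone covered by 0.5 or more were at the 70.4 percentile, and the 43 that replicates 2 and 3 covered without it at the 32.9 percentile.

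**Figure D4:**
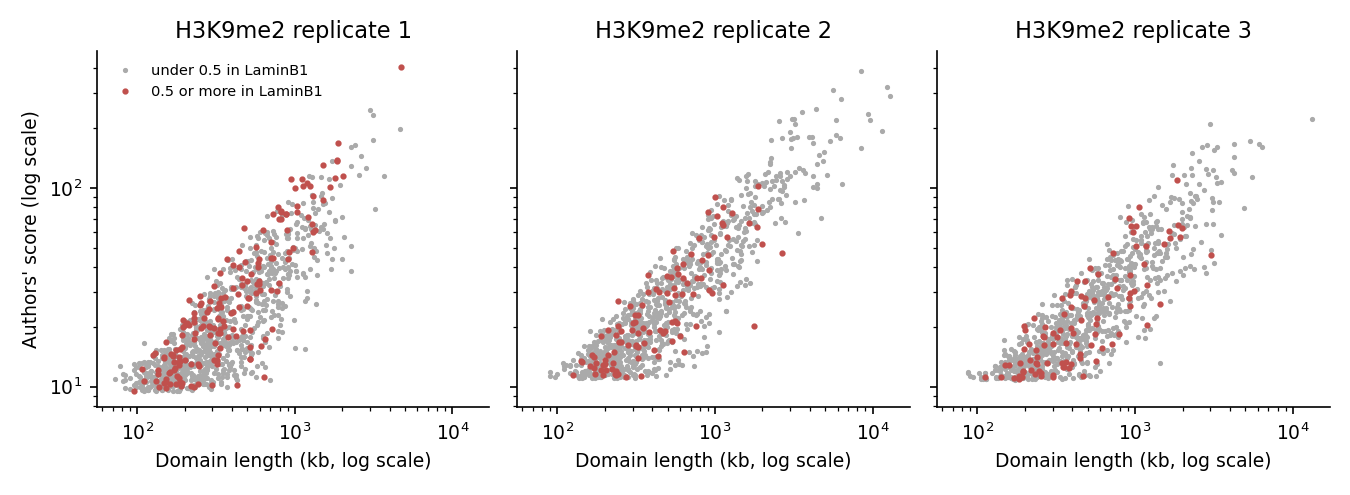
The authors' score (vertical axis, log scale) against the length of each autosomal H3K9me2 domain in kb (horizontal axis, log scale), 1 panel per library of Prdm16 FAPs; red points have 0.5 or more of their length in LaminB1. Score follows length with a rho of 0.82, 0.87 and 0.86, and the highest-scoring domain is red in replicate 1 only.

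The X chromosome was outside the comparison, and its values differed more between libraries than those of the autosomes. H3K9me2 covered 43.6, 23.9 and 7.48% of it in replicates 1, 2 and 3, and LaminB1 covered 14.9%. The ratio of observed to expected overlap on X was 1.23, 0.287 and 0.202. In the RNA libraries the count of Xist, which silences an X chromosome in female cells, was 3483 to 4652 in 4 libraries and 15 in the library labelled Prdm16 replicate 2. Sex is not given in the labels, and which RNA and domain libraries share animals was not given either.

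The overlap was lower in Prdm16 than in WT FAPs by the mean share and the mean ratio, but the design could not separate the genotypes at 0.05. Each genotype has 1 LaminB1 library, so a difference between genotypes and a difference between those 2 libraries cannot be told apart. The share of H3K9me2 inside the LaminB1 of the same genotype was 22.7, 12.6 and 12.7% in Prdm16 and 51.0, 46.8 and 51.5% in WT. The groups did not overlap (16.02 ± 5.82% against 49.8 ± 2.60%, SD, n = 3 each, exact two-sided permutation test, p = 0.1, the smallest this design allows). LaminB1 itself covered 26.3% of the autosomes in WT and 12.4% in Prdm16, which enters this share directly.

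The ratio to the expected overlap takes coverage into account, and on it the groups were nearer. It was 1.81, 1.05 and 1.05 in Prdm16 and 1.94, 1.77 and 1.96 in WT, so Prdm16 replicate 1 lay among the WT values. The means were 1.30 ± 0.441 and 1.89 ± 0.107 (SD, n = 3 each, exact two-sided permutation test, p = 0.2). With the Prdm16 LaminB1 list for both genotypes they were 1.30 and 1.57 (exact p = 0.4), and with the WT list for both 1.58 and 1.89 (exact p = 0.2). Without Prdm16 replicate 1 the Prdm16 mean was 1.05 with the Prdm16 list and 1.43 with the WT list. In these tests the smallest possible p was 0.1.

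Boundaries met more often in WT as well. Within 24 kb lay 22.2, 19.03 and 22.0% of WT H3K9me2 boundaries against 3.90, 3.90 and 3.89% of positions, compared with 5.62 to 6.94% in Prdm16. LaminB1 domains wholly inside H3K9me2 numbered 578, 327 and 478 of 985 in WT and 305, 343 and 248 of 903 in Prdm16. As ratios to the expected counts these were 2.73, 3.19 and 2.46 in WT and 2.92, 1.64 and 1.48 in Prdm16, so Prdm16 replicate 1 lay among the WT values. No test was made of these differences.

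RNA offered a readout that the domains did not use. Protein-coding autosomal genes (19787 with counts) were assigned where 0.5 or more of the gene body lay under both marks, under H3K9me2 in all 3 libraries without LaminB1, under LaminB1 without H3K9me2 in any library, or under neither. A gene was expressed at 1 CPM or more, where CPM is a gene's count scaled to a library total of 1000000. CPM takes no account of gene length, so no order between genes is read from it. In bulk samples, fewer cells expressing a gene and less RNA per cell cannot be told apart.

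The RNA labels were in doubt. Ifit3, an interferon-induced gene, stood at 478, 759 and 21.8 CPM in replicates 1 to 3 labelled WT, and at 564 and 21.4 CPM in replicates 1 and 2 labelled Prdm16. Means over these labels give a log2 ratio of -0.52, whereas the authors' deposited table gives -4.79. Counts of Prdm16 itself were 171, 94 and 59 in the libraries labelled WT and 91 and 86 in those labelled Prdm16, so its level does not separate the labels. Values are therefore given by library. FAP markers were present, with 14 or 15 of 15 at 1 CPM or more and summed levels of 7537 to 10909 CPM. Myoblast markers summed to 588 to 1041 CPM. Of 14 listed, 11 reached 1 CPM in each library labelled Prdm16, and Pax7, Myf5 and Msc did not. Myog stood at 121 and 84.1 CPM in these libraries. Pericyte and smooth muscle markers summed to 195 to 488 CPM, with 6 of 8 at 1 CPM or more. Leukocyte markers summed to 19.7 to 31.5 CPM. In the libraries labelled Prdm16, 2 and 4 of 10 reached 1 CPM, and Adgre1, Fcgr1 and Cd3e were among those at 0.

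Genes under LaminB1 were almost all below 1 CPM, with or without H3K9me2, and a larger share was expressed under H3K9me2 alone. Under both marks lay 146 genes, of which 2.05% were expressed in each library labelled Prdm16. Under LaminB1 only lay 1277 genes, with 2.51 and 2.19% expressed. Under H3K9me2 only lay 571 genes, with 17.7 and 18.4% expressed. Under neither lay 16145 genes, with 69.6 and 70.3% expressed. The order of H3K9me2 only between LaminB1 and neither was the same in 5 of 5 RNA libraries: the 3 labelled WT had 15.8 to 17.2% in the H3K9me2 class, 1.72 to 2.66% in the LaminB1 class and 69.1 to 69.3% in neither. Genes are not replicates, and no test was made across them.

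Gene density separated the classes in another way. LaminB1 without H3K9me2 held 7.56 genes per Mb, near the autosomal 8.04, while both marks held 2.21 and H3K9me2 alone 1.98. Stretches with neither held 11.96. Genes of the LaminB1 class were short, with a median of 2.00 kb, against 19.7 kb under both marks, 26.8 kb under H3K9me2 alone and 19.5 kb under neither. The medians under both marks and neither were close, but the upper quartiles were 153 and 46.1 kb, and 14 of 146 genes under both marks exceeded 500 kb against 56 of 16145 under neither.

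**Figure D5:**
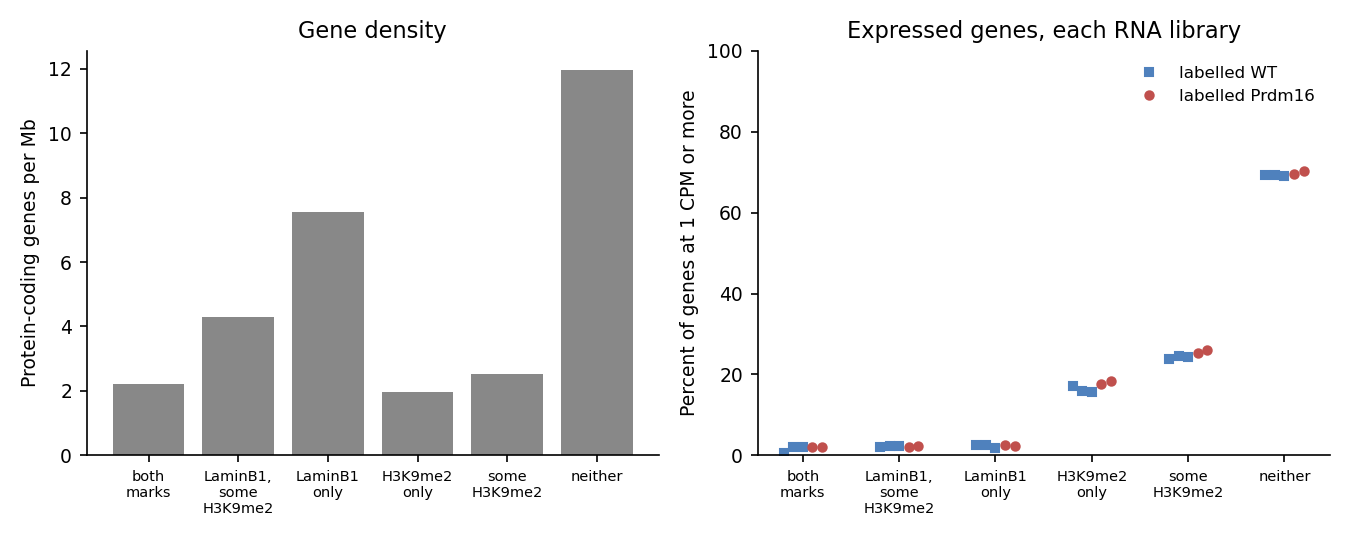
Left, protein-coding genes per Mb of each domain class in Prdm16 FAPs. Right, percent of genes at 1 CPM or more in each of the 5 RNA libraries (squares labelled WT, circles labelled Prdm16). All 3 classes with LaminB1 lie under 3% in every library, H3K9me2 alone between 15.8 and 18.4%, and neither between 69.1 and 70.3%.

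For H3K9me2 seen in some libraries only, the expressed share differed by library. Outside LaminB1, genes under H3K9me2 of replicate 3 only were expressed in 53.8 and 50% of 106 cases, and those of replicates 2 and 3 in 33.1 and 35.6% of 320. Genes under replicate 1 only were expressed in 15.4 and 17.4% of 241, those of replicates 1 and 2 in 14.1 and 13.7% of 241, those of replicates 1 and 3 in 18.75 and 15.6% of 64, and those of replicate 2 only in 22.4 and 21.8% of 294. Where LaminB1 was present as well, the highest share in any combination of H3K9me2 libraries was 3.03% in the libraries labelled Prdm16.

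Large receptor families filled the LaminB1 class. Olfactory, vomeronasal and bitter taste receptors and defensins made up 56.5% of its genes, against 7.69% of all genes. Of all genes, 6.45% lay under LaminB1 only, 0.738% under both marks and 2.89% under H3K9me2 only. Of 1094 olfactory receptor genes (Olfr), 443 lay under LaminB1 only, 10 under both marks and 41 under H3K9me2 only. As shares these were 40.5, 0.914 and 3.75%, so only the first was far from that of all genes. Of 327 vomeronasal receptor genes, which detect pheromones, 220 lay under LaminB1 only and 2 under both. Of 35 bitter taste receptors, 17 lay under LaminB1 only, and of 65 defensins, antimicrobial peptides, 41 did. Cytochrome P450 genes, enzymes of drug and steroid oxidation, had 26 of 99 there. Without the receptors and defensins 5.31% of the LaminB1 class were expressed, still below the 20.2% of the H3K9me2 class under the same exclusion, which was added after seeing the data.

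Keratin, serpin and neuronal genes lay under H3K9me2 of at least 1 library more often than genes in general, and they differed in LaminB1. For all genes the shares were 11.7% for H3K9me2 and 8.72% for LaminB1. Keratin genes, filament proteins of epithelia, had 34 of 53 under H3K9me2 of at least 1 library and 0 under LaminB1. Serpins, protease inhibitors, had 35 of 61 under H3K9me2 and 11 under LaminB1. Of a list of 35 neuronal adhesion and synapse genes, 28 lay under H3K9me2 of at least 1 library and 3 under LaminB1. Of 20 glutamate and GABA receptor genes, 16 lay under H3K9me2 and 5 under LaminB1. As shares under LaminB1 these were 0% of keratins, 8.57% of adhesion and synapse genes, 18.03% of serpins and 25% of glutamate and GABA receptors.

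Hox, matrix and housekeeping genes lay outside both marks, as did 81.6% of all genes. All 19 clustered Hox genes listed, 17 of 17 matrix genes and 15 of 15 housekeeping genes were in neither. Of 18 fat genes 16 were in neither. Of 24 myogenic regulators and contractile genes 17 were in neither and 6 under H3K9me2 only, which held 2.89% of all genes. Zinc finger genes named Zfp had 350 of 384 in neither and 21 under LaminB1 only (5.47%, near the 6.45% of all genes). Pdgfra, Pparg, Myod1, Myog, Lmnb1, Ehmt1, Ehmt2 and Prdm16 were each assigned to neither. Of these, Pdgfra, the receptor that defines FAPs, was touched by H3K9me2, over 6.84 and 26.0% of its body in replicates 1 and 2.

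Long neuronal genes led the class under both marks. Tenm2, a teneurin that joins synapses, spans 1230 kb (chr11:36006656-37237053), with 89.8% of its body in LaminB1 and 96.6, 96.4 and 96.4% in H3K9me2 replicates 1, 2 and 3. It had 0 counts in both libraries labelled Prdm16. Dpp6 (chr5:26817357-27727500) had 88.2% in LaminB1 and 100% in each H3K9me2 library, at 0.592 and 1.71 CPM. Ptprn2, a protein of secretory granules, had 95.7% in LaminB1 and 100, 67.4 and 68.6% in H3K9me2, at 0 and 0.171 CPM. Grid1 and the NMDA receptor subunits Grin2a and Grin2b also belonged here, as did Hs6st3, an enzyme of heparan sulfate. Hs6st3 had 0 counts in all 5 RNA libraries.

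Few genes under both marks reached 1 CPM, 3 in each library labelled Prdm16. Clstn2, a calsyntenin of the synapse, had 84.1% of its 589 kb in LaminB1 and 100% in each H3K9me2 library, at 1.07 and 3.42 CPM (9 and 20 counts). Its promoter was the CG-rich one printed above, which lay outside LaminB1. Grin2a stood at 0.710 and 2.23 CPM, and Ryr3, a calcium release channel, at 1.18 and 0.514. Gbp8, a guanylate-binding protein, stood at 1.42 and 0.171 CPM. Dnah9, a motor of cilia, and the carboxylesterases Ces2e and Ces2g stayed under 1 CPM in both libraries. All of these levels rest on at most 20 counts per library.

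The longest genes under H3K9me2 only were of a like kind, and several of them had LaminB1 over a smaller part. Lsamp, a neural adhesion protein that spans 2197 kb, had 98.6, 99.2 and 100% of its body in H3K9me2 and 8.92% in LaminB1, at 0.118 and 0.342 CPM. Nrxn3 had 35.8% and Rbfox1 43.2% of the body in LaminB1, below the 0.5 required for both marks. Rbfox1 stood at 7.81 and 3.77 CPM. Fhit, a long gene known as a fragile site, stood at 1.30 and 2.23 CPM, and Agbl4 had 1 count in 1 of the libraries labelled Prdm16.

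A small number of genes under LaminB1 only were expressed. Hmga2, an architectural chromatin protein of embryonic and proliferating cells, had 96.1% of its body in LaminB1 and 0% in each H3K9me2 library. The start site of Hmga2 lay in the part outside LaminB1. The gene stood at 604 and 584 CPM in the libraries labelled Prdm16 and at 668, 397 and 754 CPM in those labelled WT, so it was high in all 5. Zfp317, a zinc finger protein, lay wholly in LaminB1 at 58.1 and 50.9 CPM. Ska1, of the spindle and kinetochore, had 69.5% of its body there at 15.6 and 11.99 CPM, with an end of the body outside LaminB1. Sp110, an interferon-induced nuclear body protein, lay wholly in LaminB1 at 15.2 and 1.03 CPM, and at 13.7, 19.4 and 0.389 in the libraries labelled WT. Its low libraries were those with low Ifit3. Slc15a4, a lysosomal transporter, lay wholly in LaminB1 at 7.81 and 10.4 CPM, as did the zinc finger gene Zfp951 at 12.3 CPM in both libraries and Klra4, of a natural killer receptor cluster, at 11.7 and 16.4 CPM. Sfi1 (22.1 and 17.1 CPM) also had an end of its body outside LaminB1. It lies beside near-identical copies, so its domain and its reads are uncertain.

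Expressed genes under H3K9me2 only included contractile and interferon genes, named here after their values were seen. Ttn, the giant spring protein of the sarcomere, had 75.4, 72.2 and 52.8% of its body in H3K9me2 and 0% in LaminB1, at 270 and 469 CPM. Both ends of the Ttn body lay outside H3K9me2 in each library. Actc1, cardiac alpha actin, lay wholly in H3K9me2 at 104 and 76.5 CPM. Of 14 myoblast markers 11 reached 1 CPM in each library labelled Prdm16, and the part of such cells in these values was not tested. Rsad2 (viperin) and Cmpk2, interferon-induced neighbours on chromosome 12, lay wholly in H3K9me2. Rsad2 stood at 108 and 6.16 CPM and Cmpk2 at 49.8 and 2.74 CPM, again low in the library with low Ifit3. Penk, which encodes the enkephalin precursor, stood at 27.5 and 34.6 CPM, and Sgcd, a sarcoglycan, at 41.8 and 45.2 CPM.

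The longest uninterrupted stretches were these. Both marks ran for 1.34 Mb at chr5:26280001-27620000, 1.12 Mb at chr11:36132001-37254000 within Tenm2 and its flank, and 1.11 Mb at chr16:5328001-6436000, which runs into Rbfox1, a neuronal splicing factor. LaminB1 alone ran for 3.38 Mb at chr17:37416001-40800000, with 52 genes inside, 32 of them olfactory receptors, and with Crisp1, Crisp2 and Crisp3, secreted proteins of the male tract. None of the 52 was expressed in the libraries labelled Prdm16. H3K9me2 alone ran for 3.12 Mb at chr12:25254001-28377000, where 4 of 4 genes were expressed. Sox11, a transcription factor of neural progenitors, was at 3.91 and 5.48 CPM and Rnf144a, a ubiquitin ligase, at 6.51 and 7.36 CPM. Eno1b, in a stretch on chromosome 18, is a near copy of Eno1, so its counts are uncertain.

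Promoters of the classes differed in CG content. Each promoter was given the class of its gene body, whether or not the promoter itself lay in the domain. Over 15825 promoters, 80.0% of the genes, 59.5% held 10 or more CG dinucleotides in 300 bases. Under neither mark it was 68.6%, under H3K9me2 only 30.9%, under both marks 26.2% and under LaminB1 only 3.13%. The median number of CG was 17, 4, 3 and 1 in that order. Without receptors and defensins the LaminB1 share was 7.33% and the share under both marks 29.1%. Spp1, an extracellular phosphoprotein at 11222 and 14419 CPM, had 3 CG. Clstn2 had 43 and Hmga2 had 12, so these printed promoters, both outside LaminB1, lay far from the median of their class. Tenm2 with 2 CG and Vmn2r91 with none lay near theirs.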

How the data were processed

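Domain lists of H3K9me2 (3 Prdm16 and 3 WT libraries) and LaminB1 (1 of each) and RNA of 5 libraries were used. The 8 input samples were not used. The deposited lists hold the authors' score per domain, for which the sources used here give neither the making nor the caller. The deposited RNA tables hold raw counts, a normalized signal and the authors' log2 fold changes and p-values; the p-values were not used. Per the submitters' processing notes, DESeq2 1.20, featureCounts, STAR 2.7 and Bowtie 1.2.2 were used, with GRCm38, mm10 and dm6 as builds, without their roles. RNA totals ran from 5839587 to 10657791 counts. The lists carry no read depth, so domain values have no counting interval.

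Domains were laid on a 1 kb grid in Python 3.11.15 (numpy 2.4.6, scipy 1.17.1, pandas 2.3.3, matplotlib 3.10.9) and the computations were checked on simulated lists. Chromosomes ran from position 0 to the last domain or gene end. Genotypes were compared by exact two-sided permutation of 3 against 3 values, with a threshold of 0.05. Of 20560 RefSeq protein-coding autosomal genes (GRCm38.p6), 19787 (96.2%) matched the count table. CPM refers to library totals.

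Members and gene lists were chosen with earlier results of these data known. Named genes were 8 key genes, the 8 genes with the highest CPM under both marks and under LaminB1 only, the 6 longest under both marks and under H3K9me2 only, up to 4 list members under both marks, and genes in the 3 longest stretches of each class. Others are marked as named after their values were seen, as were the promoters of Hmga2 and Vmn2r91. A few genes that the rule names are not reported here.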

Additional observations from a re-analysis of the deposited data

How the results depend on the processing

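LaminB1 has 1 library per genotype, so nothing measures its spread, and the domain lists carry no depth. Counting assembled bases only was not run, because no genome was at hand. The mean overlap ratio of 1.30 stayed above 1 in every alternative run: 1.25 with X, 1.24 for the upper scores, 1.27 with chromosomes counted from 3 Mb and 1.29 without the longest LaminB1 domain, the last 2 added after seeing the data. Leaving out each H3K9me2 library gave 1.05 to 1.43. By library, the upper scores took replicates 2 and 3 below 1, to 0.801 and 0.868; the cause was not tested.

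For the upper scores, 23.7% of LaminB1 lay inside H3K9me2, fewer domains being used. H3K9me2 domains in LaminB1, 1.46% (expected 3.82%), became 13.1% (expected 10.3%) when 0.5 of a domain was enough, 2.42% with edges widened by 12 kb and 0.824% for the upper scores. LaminB1 domains in H3K9me2, 33.1% (expected 17.8%), became 41.0% (expected 26.2%) at 0.5. Close boundaries, 6.14% within 24 kb (positions 3.53%), became 3.74% (1.81%) within 12 kb, 10.7% (6.82%) within 48 kb and 3.86% (1.77%) for the upper scores.

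The mean score difference of 0.695 points turned to -3.78 between covers of 0.8 or more and 0.2 or less, and to values from -6.30 to 4.51 on leaving out single libraries. Per kb, replicates 2 and 3 turned to 4.60 and 2.80; the cause was not tested.

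Expressed shares under both marks, H3K9me2 only, LaminB1 only and neither were 4.79, 23.3, 3.72 and 73.7% at 0.5 CPM and 0, 7.62, 0.901 and 60.1% at 5 CPM. By start site the H3K9me2 and LaminB1 classes had 13.9 and 1.89%. H3K9me2 in at least 1 library gave 23.6%. Without receptors and defensins, H3K9me2 only, LaminB1 only and neither had 20.2, 5.31 and 72.2%. The order of the 4 main classes changed in none of these, apart from the ranks of both marks and LaminB1 only, which lay close together.

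With the replicate block, the genotype differences of -33.8 points and -0.589 in the ratio had an exact p of 0.25 each, the smallest that 3 pairs allow. Same-numbered libraries did not deviate together: the correlations of their deviations were -0.159, -0.385 and 0.0979. The genotype difference kept its sign in all alternatives run.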
